A study of Caenorhabditis elegans with 30 samples.

Results

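The cuticlin and cuticlin-like genes of Caenorhabditis elegans were taken as the protein-coding genes whose WormBase symbol is cut- or cutl- followed by a number. There were 35 of them, 6 cut and 29 cutl genes, among 46690 genes listed in the counts of both experiments of the series. All 35 had at least 1 read in each experiment.

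The worm's cuticle is a collagen matrix that the epidermis lays down in the embryo and replaces at each larval moult. Cuticlins are its insoluble, non-collagen part, and most carry a zona pellucida (ZP) domain, a fold through which secreted proteins polymerise at a cell's outer face. Several build the alae, the ridges along the worm's sides, at set larval stages, so these genes are best known from embryos, moulting larvae and dauers, the arrested larvae of starved or crowded worms.

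The series asked how cold and lithium delay forgetting, and all worms were N2, the wild-type strain, grown on OP50 bacteria and sequenced whole as polyA RNA. In the lithium experiment untrained worms that saw no ice spent the night on NGM plates that held 15 mM LiCl or no lithium (plain agar), each at 15 C or at 20 C. In the ice experiment worms were conditioned with butanone or left naive and all spent 2 hours on ice. They had been kept at 15 C overnight and returned to 20 C for 2 hours (shifted), kept at 15 C overnight, or kept at 20 C. Each of the 4 lithium groups and 6 ice groups had 3 libraries, 30 in all. The labels give no age or stage. Lithium replicates carry numbers and ice replicates carry letters. The series calls the ice replicates biological, while for lithium p-values measure the spread between these libraries, which may be technical.

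Library totals were 10111055 to 27794834 counts in the lithium experiment and 9873554 to 30054357 on ice. The 35 genes drew 229 to 3961 of these counts per lithium library and 328 to 3839 per ice library. In the lithium experiment 18 of the 35 averaged under 1 CPM (the library-scaled read count, by TMM). Tests used edgeR's quasi-likelihood fit over all genes, with Benjamini-Hochberg adjustment over the genes tested and a threshold of 0.05. Its filter on low counts left 20 of the 35 in the lithium fit, 31 in the ice fit of temperature and 29 in the ice fit of training. A gene that passed through 1 high group had to differ, so counts over the tested genes describe those genes and not all 35. In whole worms, fewer cells of a type and less RNA per cell cannot be told apart.

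The genes were spread over all chromosomes, with 7 on I, 9 on II, 4 on III, 5 on IV, 5 on V and 5 on X (build WBcel235, Ensembl release 115). Their exons covered 810 to 3637 bases, median 1558. The closest pairs were cut-2 and cutl-1, 8835 bases apart on V, and cutl-26 and cutl-28, 10359 bases apart on IV. Exons of 11 members overlap those of another protein's gene, 10 times from the opposite strand. The other one, cutl-20, shares 221 bases with shc-1 on its own strand, so its reads are uncertain. The ice libraries did not keep strand, so reads in the opposite-strand overlaps, such as 84 bases in cutl-18, are uncertain there too. For lithium the strand setting of the counting is not given.

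Per kilobase of exon, cutl-14, a cuticlin-like gene, had the highest mean level in both lithium groups and on plain agar at 15 C. It stood at 3.50 CPM per kb on lithium at 15 C, 2.67 on lithium at 20 C, and 2.69 on plain agar at 15 C. The next genes in these groups were cutl-10, cutl-24 and cutl-26, at 2.45 CPM per kb or less. Over the libraries, cutl-14 and the gene after it overlapped per kb on lithium at 20 C and on plain agar at 15 C and did not on lithium at 15 C. On plain agar at 20 C the order changed: cut-2 came first with 27.4 CPM per kb and cut-3 next with 19.03, ahead of cutl-16 at 5.05 and cutl-2 at 3.87. The leading genes there rested on 1 library, and all 4 overlapped per kb. On ice cut-3 and cut-2 led at 15 C, with 7.24 and 6.17 CPM per kb, while cutl-14 led in shifted worms (3.98) and at 20 C (4.58). The 15 C means of cut-3 and cut-2 rested mainly on letter B, with 21.0 and 16.1 CPM. Letter G held 0.0557 CPM of cut-3 and 0.0186 of cut-2, and letter H 6.59 and 1.03.

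Lithium at 20 C gave the most called members of all the comparisons made. Of the 20 tested genes 8 fell on lithium and none rose: cut-2, cut-3, cut-6, cutl-2, cutl-9, cutl-16, cutl-18 and cutl-28. These calls came from the fit of all 12 libraries; with only the 6 libraries compared in the fit none of the 8 was called, and each had an adjusted p of 0.143 (edgeR). Over all 12392 genes tested, 6.33% were called lower and 5.91% higher. The median log2 fold change of the tested members was -1.36, against -0.07 over all genes, and 18 of 20 values were negative. Among all 35, 15 were lower in every lithium library than in any plain agar library, where 15.1% of genes tested were. Those 15 included 5 that the filter had removed, cut-5, cutl-8, cutl-11, cutl-13 and cutl-21.

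Raw counts show how low the called members stood on lithium at 20 C against plain agar at 20 C. The family as a whole summed to 22.1 to 32.2 CPM on lithium at 20 C, below every plain agar library at 20 C. Its sums there overlapped those of both 15 C groups. At 15 C the sums were 26.1 to 51.6 CPM on plain agar and 24.2 to 29.95 CPM on lithium. Plain agar at 20 C was the group with the highest sums, at 45.5 to 280.9 CPM. The gene cut-3 (II:8445169-8446831), whose ZP protein shapes the embryo and the alae of the first larval stage, had 4, 0 and 0 counts in replicates 1, 2 and 3 on lithium at 20 C, against 83, 890 and 103 on plain agar. In CPM these were 0.31, 0 and 0 on lithium and 4.53, 63.1 and 4.98 on plain agar. The groups did not overlap, and cut-3 fell by 7.83 on the log2 scale (SE 1.49, adjusted p = 0.0195, edgeR).

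The gene cut-2 (V:13414949-13416064) codes for a cuticlin without a ZP domain that is cross-linked through tyrosines. It had 11, 0 and 0 counts on lithium, against 40, 984 and 90 on plain agar, and fell by 6.50 (SE 1.72, adjusted p = 0.0351, edgeR). All of its lithium reads came from replicate 1, and most of its plain agar reads from replicate 2. The ZP gene cut-6 (III:10911460-10916665), needed for the dauer larva's body shape, had 2, 2 and 5 counts on lithium, against 16, 155 and 31 on plain agar. It fell by 4.28 (SE 1.05, adjusted p = 0.0303, edgeR), with no overlap between the groups.

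The ZP gene cut-5 (X:10333858-10338200), which acts in the alae of the first larval stage and of dauers, was too low to be tested. It had 1, 1 and 0 counts on lithium, against 10, 85 and 14 on plain agar, and the groups did not overlap. Pooled over the group, its level was 42.0-fold lower on lithium (95% exact counting interval 11.4 to 352). Such intervals cover counting error only, not the spread between libraries. The dauer alae gene cut-1 (II:11269122-11271660) was close to absent, with 0, 2 and 0 counts on lithium and 1, 1 and 1 on plain agar. Unlike cut-2, cut-3, cut-5 and cut-6, cut-4 (II:10436136-10440087) had 26, 32 and 35 counts on lithium and 34, 30 and 47 on plain agar. Its CPM overlapped between groups, and its log2 fold change was 0.12 (SE 0.45, adjusted p = 0.875, edgeR).

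The 5 called cuticlin-like genes, whose names rest on their likeness to the cut genes, were also lower in every lithium library. The counts of cutl-28 (IV:684497-688340) were 2, 0 and 1 on lithium, against 34, 160 and 24 on plain agar. Pooled, cutl-28 was 56.1-fold lower on lithium (95% exact counting interval 18.9 to 274; adjusted p = 0.027 in the edgeR fit). For cutl-9 (II:10622265-10625946) the lithium libraries held 3, 3 and 1 counts and the plain agar libraries 51, 145 and 24. In both genes every lithium library lay below every plain agar library, and cutl-9 fell by 4.72 (SE 1.10, adjusted p = 0.027, edgeR).

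The other called genes kept more reads on lithium. Counts of cutl-2 (II:9721758-9724673) were 10, 7 and 4 on lithium and 65, 148 and 40 on plain agar, and it fell by 3.34 (SE 0.85, adjusted p = 0.0325, edgeR). Those of cutl-18 (V:11313362-11316901) were 2, 18 and 15 on lithium and 56, 105 and 92 on plain agar, and it fell by 2.55 (SE 0.57, adjusted p = 0.027, edgeR). Again no lithium library reached a plain agar library in either gene. For cutl-16 (II:6441428-6443994) the counts were 30, 18 and 23 on lithium and 82, 273 and 91 on plain agar, and it fell by 2.42 (SE 0.57, adjusted p = 0.0272, edgeR), also without overlap. The 12 tested members that were not called had log2 fold changes between -2.12 for cutl-25 (adjusted p = 0.0553, edgeR) and 0.21 for cutl-24, and 10 of the 12 were negative.

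**Figure D1:**
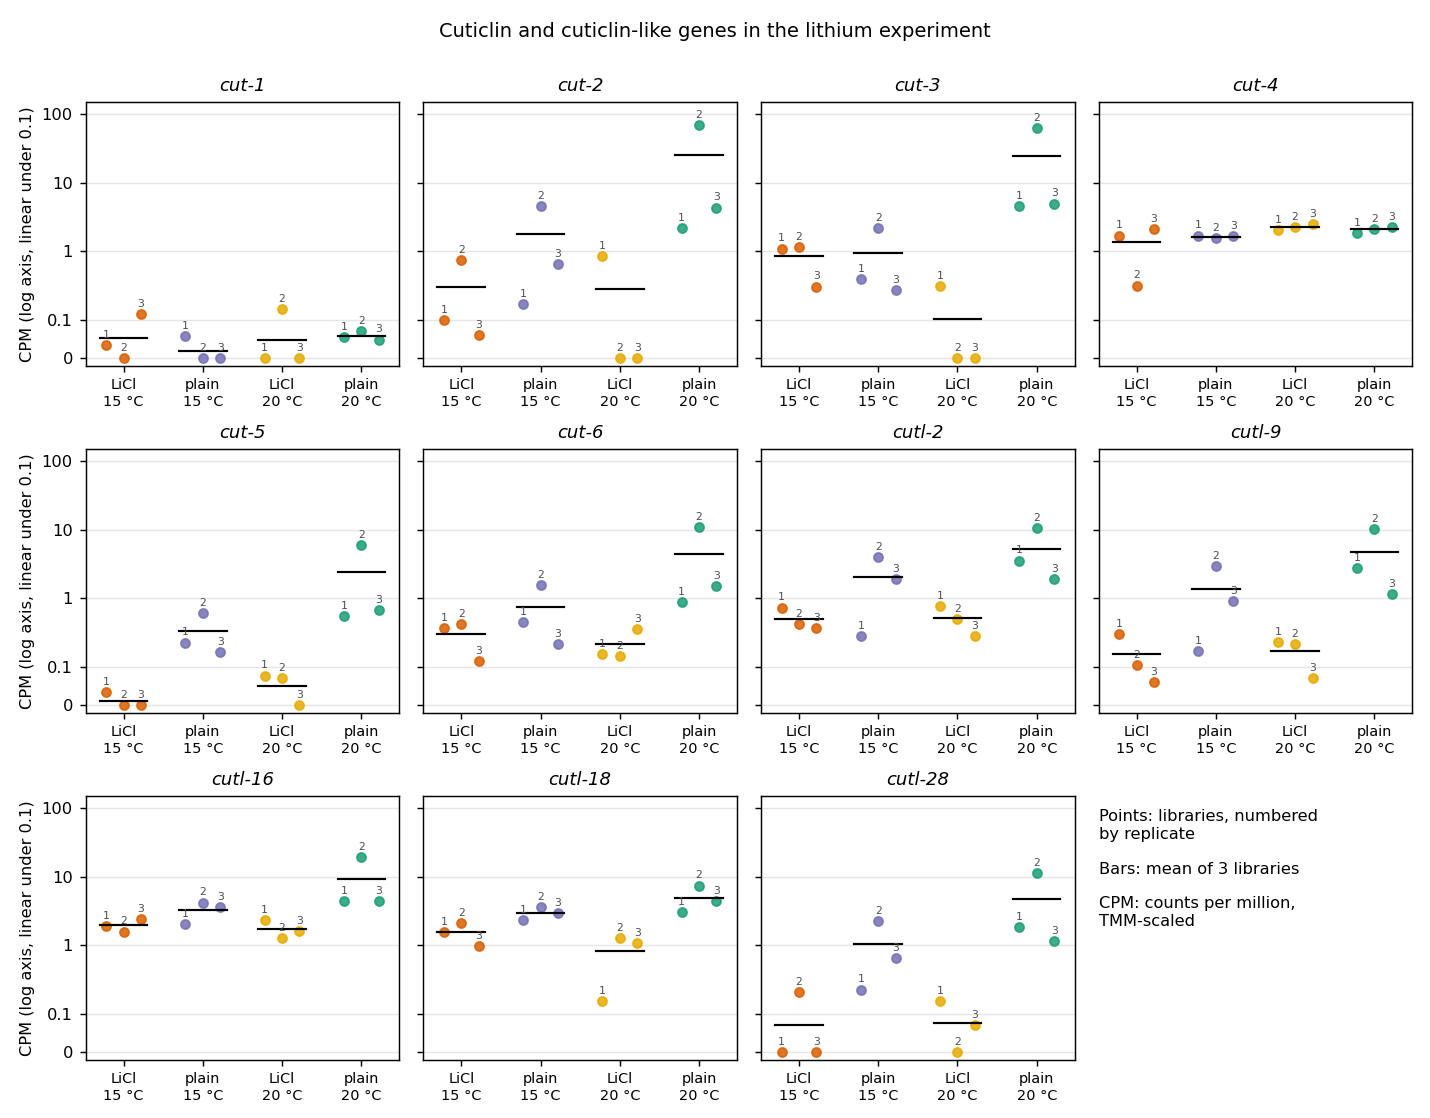
Scaled level (CPM, y axis, logarithmic above 0.1 and linear below) of the 6 cut genes and the 5 called cuticlin-like genes in each library of the lithium experiment, by group on the x axis. Points are libraries with their replicate number and bars are means of 3 libraries; at 20 C, replicate 2 on plain agar is the highest of its group in every panel but that of cut-4, and the lithium points at 20 C lie below all plain agar points at 20 C in every panel but those of cut-1 and cut-4.

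Much of the size of these differences came from 1 library, replicate 2 of plain agar at 20 C. The family summed to 280.9 CPM there and to 45.5 and 51.2 CPM in replicates 1 and 3, while the 3 lithium libraries at 20 C summed to 32.2, 24.2 and 22.1 CPM. It held 88.3% of the group's counts of cut-2 and 82.7% of those of cut-3. Relative to the mean of the other replicates, cut-2 was 21.4-fold higher in it, cut-3 13.3-fold, cut-5 9.86-fold, cut-6 9.27-fold and cutl-28 7.52-fold. The ratio was 4.17 at the median of the 30 members with more than 3 counts over replicates 1 and 3 together. It exceeded 5 in 9 members and lay between 2 and 5 in 17. The 4 members at 2 or less were cutl-18 at 1.98, cut-4 at 1.03, cutl-14 at 0.944 and cutl-1 at 0.711.

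**Figure D2:**
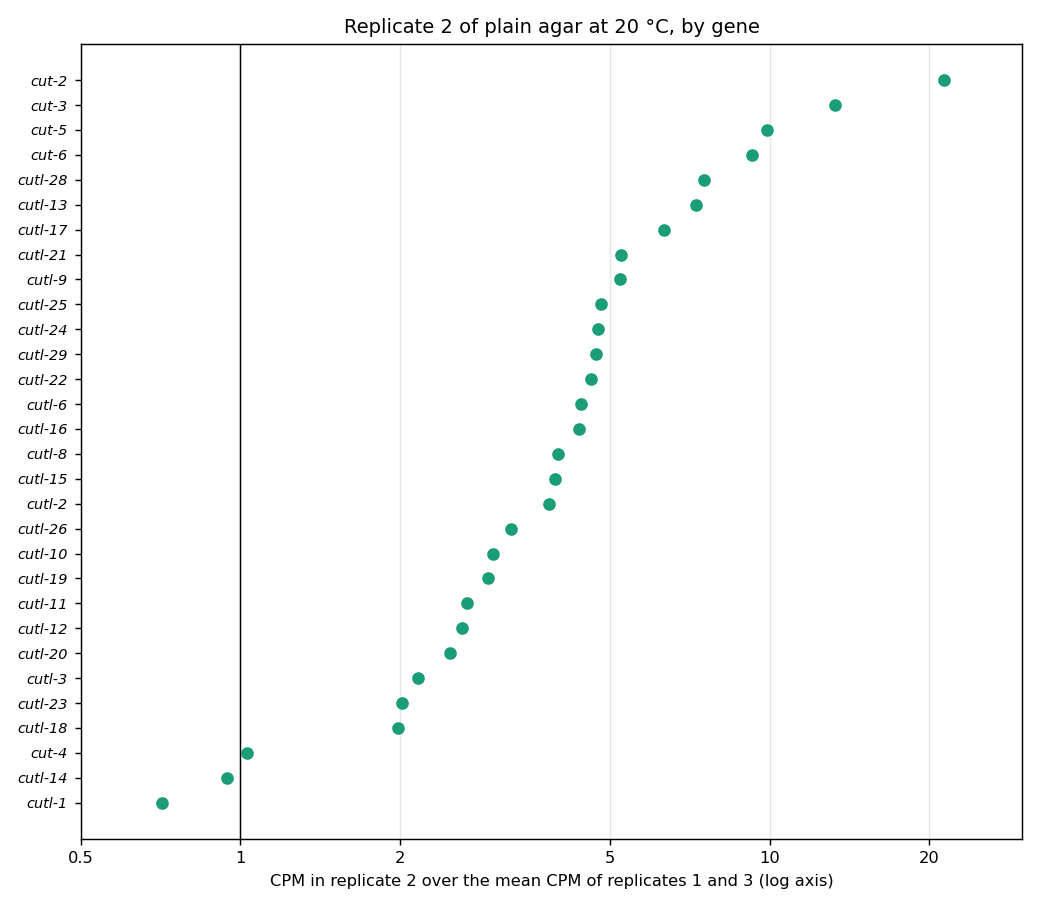
CPM in replicate 2 of plain agar at 20 C divided by the mean CPM of replicates 1 and 3 (x axis, logarithmic), for the 30 members with more than 3 counts over replicates 1 and 3 together (y axis, sorted). The ratios run between 0.711 for cutl-1 and 21.4 for cut-2, with 4 genes at 2 or less.

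Without this library 1 member, cut-3, remained called, where 2.1% of 12691 genes tested were called lower and 1.23% higher. Its log2 fold change was then -5.49 (adjusted p = 0.0237, edgeR). Values of the others moved toward 0: cutl-28 to -4.22 (adjusted p = 0.0569), cut-2 to -3.54 (0.153), cutl-9 to -3.46 (0.0657), cut-6 to -2.40 (0.0936) and cutl-2 to -2.39 (0.0977). The gene cutl-18 stood at -2.14 (adjusted p = 0.05 as rounded, just above the threshold) and cutl-16 at -1.34 (0.0531). The median over the tested members became -0.65, against 0.02 over all genes, and 17 of 20 values were negative. Against replicates 1 and 3 alone, cut-5 was 12.6-fold lower on lithium (95% exact counting interval 3.13 to 110). The uncalled gene cutl-24, singled out after its values were seen, went the other way: it stood at 1.36 without replicate 2, with 7.83, 4.07 and 2.35 CPM on lithium and 1.69 and 1.98 CPM in replicates 1 and 3 on plain agar.

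Leaving out a lithium library had a larger effect on the calls. Without replicate 1, 2 or 3 on lithium no member was called, and only 32, 5 and 43 of all genes were. Without replicate 1 or 3 on plain agar, 10 and 12 members were called lower. These 2 counts stand without their share over all genes, so they do not set the members apart.

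**Figure D3:**
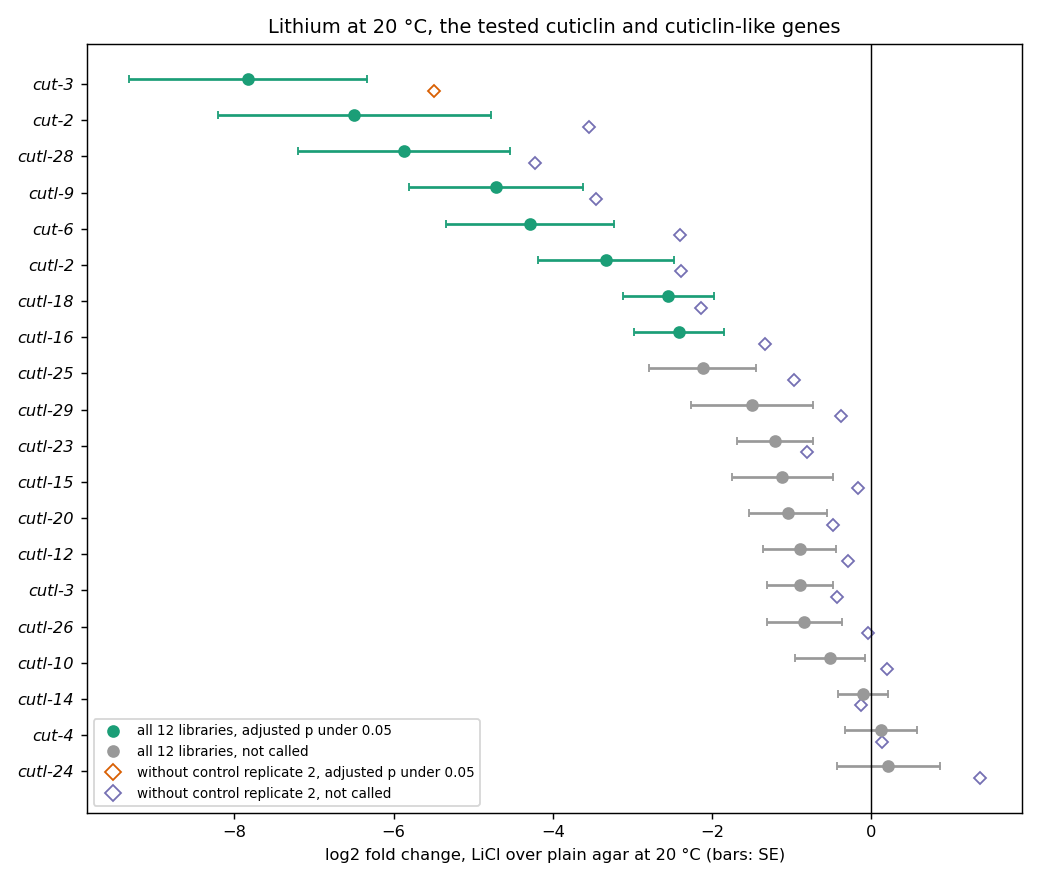
Log2 fold change on lithium over plain agar at 20 C (x axis) of the 20 tested members (y axis, sorted). Circles with SE bars come from all 12 libraries and diamonds from the fit without replicate 2 of plain agar at 20 C; 8 circles and 1 diamond, that of cut-3, passed the threshold, and the diamonds lie nearer to 0 for all but cut-4, cutl-14 and cutl-24.

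Genes that work beside cuticlins moved in the same comparison. Of the other ZP-domain and precuticle matrix genes, 9 of 11 tested fell on lithium at 20 C, led by the lipocalin lpr-3 (-5.43), the ZP genes noah-2 (-4.06) and noah-1 (-3.69) and the matrix gene let-4 (-3.50), while egg-6 rose (0.91). Of the moulting list, 6 of 21 fell, led by mlt-11 (-5.09), mlt-9 (-4.94), mlt-8 (-4.02) and the hedgehog-related qua-1 (-3.74). Of the epidermis and seam list, 3 of 14 fell: the hedgehog-related wrt-2 (-7.31), the larval collagen dpy-7 (-5.91) and the GATA factor gene elt-6 (-2.07). Of the cross-linking and ZP-processing genes, among them the dual oxidase bli-3, none of 8 tested was called in edgeR. An unadjusted p under 0.05 was held by 2 of them and by 4138 of 12392 genes tested. Of 6 adult epidermis collagens 1 was tested, and it was not called. In that list 5 genes averaged under 1 CPM.

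The same plain agar library stood apart in some of these lists and not in others. In replicate 2 the moulting list summed to 641.6 CPM, against 180.4 and 240.1 in replicates 1 and 3, and the other ZP and precuticle genes to 797.1, against 350.9 and 373.9. The epidermis and seam list summed to 1036 CPM in replicate 2, against 463.6 and 844.6 in replicates 1 and 3. The cross-linking list stood at 533.6 CPM in replicate 2, between 534.8 and 494.3 in the others, and the adult epidermis collagens at 567.0, between 508.0 and 704.3. Its germline and oocyte list summed to 6364 CPM, below 11378 and 11914, and its late embryo list to 247.6, above 144.4 and 175.3. Without it, 2 moulting genes (mlt-8 and mlt-9) and dpy-7 were still called lower, and of the other ZP and precuticle genes none was. Still called higher without it were egg-6 and 6 of the germline and oocyte genes. On lithium at 20 C the other ZP and precuticle list summed to 420.5 to 482.1 CPM, above replicates 1 and 3 of plain agar. The moulting list summed to 159.9 to 204.4 CPM on lithium and the epidermis and seam list to 403.5 to 547.0. The cross-linking list summed to 633.7 to 683.0 CPM on lithium, above every plain agar library at 20 C.

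Markers of other tissues also differed on lithium at 20 C. Of 20 germline and oocyte genes 10 rose, led by the eggshell genes cpg-3 (1.33) and cpg-2 (1.31) and the oocyte RNA-binding genes puf-5 (1.16) and oma-2 (1.13). The list summed to 16980 to 18179 CPM on lithium and to 6364 to 11914 on plain agar. Of the sperm list 9 genes were matched, 7 of them under 1 CPM on average. Its sum was 6.05 to 9.06 CPM on lithium and 5.67 to 13.5 on plain agar. Among its 4 tested genes 3 had negative values, with a median of -1.41, and only spe-41 was called, as higher (0.98). In the late embryo and hatching list, 8 of 12 genes were tested, pal-1 rose (0.76) and the hatching protease gene hch-1 fell (-3.76), while end-1, med-1, sdz-1 and tbx-37 averaged under 1 CPM. The part of worm stage or of germline content in the cuticlin result was not tested.

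At 15 C no member was called on lithium in edgeR, where 0.226% of genes were called lower and 0.161% higher. An unadjusted p under 0.05 was held by 2029 of 12392 genes tested and by 3 of the 20 tested members, cutl-2, cutl-9 and cutl-28 (edgeR). DESeq2 called 1 member, cutl-28. The fold changes of the 20 ran between -4.38 and 0.60, with a median of -0.31. Of all 35, 6 were lower in every lithium library (cut-5, cutl-8, cutl-11, cutl-18, cutl-23 and cutl-28), where 13.3% of genes tested were, and none was higher. In the other ZP and precuticle list 10 of 11 tested genes had negative values on lithium at 15 C. Its median was -1.83, against 0.07 over all genes, and 5 had an unadjusted p under 0.05 (edgeR). Negative values were held by 16 of 21 moulting, 9 of 14 epidermis, 2 of 8 cross-linking and 7 of 20 germline genes. No gene of these lists was called.

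At 15 C the cut-3 counts were 33, 11 and 5 on lithium, against 7, 21 and 5 on plain agar. The groups overlapped, and its log2 fold change was 0.01 (SE 1.11, adjusted p = 0.997, edgeR). Counts of cut-2 were 3, 7 and 1 on lithium and 3, 45 and 12 on plain agar, those of cut-6 were 11, 4 and 2 on lithium and 8, 15 and 4 on plain agar, and both overlapped in CPM. For cut-4 they were 51, 3 and 35 on lithium and 30, 15 and 31 on plain agar, and those of cut-1 were 1, 0 and 2 on lithium and 1, 0 and 0 on plain agar. The gene cut-5 had 1, 0 and 0 counts on lithium and 4, 6 and 3 on plain agar, without overlap and 15.9-fold lower when pooled (95% exact counting interval 2.38 to 674). In cutl-28 the lithium libraries held 0, 2 and 0 counts and the plain agar libraries 4, 22 and 12. That gene was 23.2-fold lower on lithium when pooled (interval 5.99 to 198), with no overlap, and its adjusted p was 0.203 in edgeR.

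The difference between the lithium effects was tested as an interaction, the effect at 15 C minus that at 20 C. No gene was called in edgeR. An unadjusted p under 0.05 was held by 1261 of 12392 genes tested and by 2 of the 20 members, cut-3 and cutl-16. For cut-3 the difference was 7.84 on the log2 scale (SE 1.92, adjusted p = 0.481), and the lowest adjusted p among the 20 members was 0.481. DESeq2 called no member either. The response to lithium at 20 C was thus not shown to differ between the temperatures.

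Temperature was compared on plain agar next, with the same 3 libraries at 20 C as the reference. Of the 20 tested members cut-3 alone fell at 15 C and none rose, where 7.77% of genes were called lower and 2.19% higher. Its counts were 7, 21 and 5 at 15 C, against 83, 890 and 103 at 20 C, and it fell by 4.82 (SE 1.18, adjusted p = 0.0365, edgeR) with no overlap. With only the 6 libraries compared in the fit it was not called (adjusted p = 0.111, edgeR). The sign was negative in 19 of 20 members, and the median was -1.41, against -0.07 over all genes. Of all 35, 7 were lower in every library at 15 C (cut-3, cut-4, cutl-8, cutl-12, cutl-16, cutl-24 and cutl-29), where 23.2% of genes tested were.

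Members that fell on lithium at 20 C were less separated here. The counts of cut-2 were 3, 45 and 12 at 15 C, against 40, 984 and 90 at 20 C, and in CPM the groups overlapped (log2 fold change -3.92, SE 1.43, adjusted p = 0.0771, edgeR). For cut-6 the 15 C counts were 8, 15 and 4, against 16, 155 and 31 at 20 C, and its highest library at 15 C, with 1.54 CPM, exceeded the lowest 2 at 20 C (log2 fold change -2.69, SE 0.93, adjusted p = 0.0694, edgeR). Counts of cutl-16 were 36, 41 and 67 at 15 C and 82, 273 and 91 at 20 C, with no overlap in CPM and an adjusted p of 0.0742 in edgeR. For cut-4 the scaled levels were 1.70, 1.54 and 1.68 CPM at 15 C and 1.86, 2.13 and 2.27 CPM at 20 C. They did not overlap either, though the log2 fold change was only -0.34 (SE 0.46, adjusted p = 0.575, edgeR).

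Without replicate 2 at 20 C no member was called, where 0.544% of genes were called lower and 0% higher, and 2 members had an unadjusted p under 0.05. The value of cut-3 became -2.49 (adjusted p = 0.137, edgeR) and the median of the 20 members became -0.46. Without replicate 1 or 3 at 20 C, 9 members were called lower, a count given here without its share over all genes. Without any 1 library at 15 C none was. Of the context lists, aex-5 (-1.01), nas-37 (-1.55), qua-1 (-2.94), nekl-2 (-1.34), php-3 (-1.05) and tlp-1 (-1.13) were called lower at 15 C and spe-41 (0.92) higher, and without replicate 2 none of them was.

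Under lithium, 15 C against 20 C gave no called gene at all in edgeR and no called member in DESeq2. An unadjusted p under 0.05 was held by 1445 of 12392 genes tested and by 1 member, cutl-24 (log2 fold change -1.49, SE 0.67, adjusted p = 0.423, edgeR). It was lower in every library at 15 C, with 2.03, 0.739 and 2.14 CPM at 15 C and 7.83, 4.07 and 2.35 CPM at 20 C, where 10.5% of genes tested were lower in every library. The genes cutl-10 and cutl-17 were higher in every library at 15 C, where 9.45% of genes tested were, and the other members overlapped.

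On ice the naive and conditioned libraries of a letter were added for each temperature, since they were not independent, which gave 3 sums per temperature. Each sum counts as 1 sample. Letter H names a sum at 15 C and another after the shift, and whether these share a culture is not stated. Between 15 C and 20 C no gene was called in edgeR. Of 31 tested members 27 had positive values, with a median of 1.93 against 0.14 over all genes. Of 15412 genes tested 1945 had an unadjusted p under 0.05 (edgeR), and so did 7 members (cutl-10, cutl-12, cutl-17, cutl-20, cutl-21, cutl-24 and cutl-27). The lowest adjusted p among them was 0.39, and DESeq2 called none.

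The ice sums spread widely within a temperature. In shifted worms the family summed to 38.0 CPM in letter C, 23.1 in D and 100.2 in H, at 15 C to 168.9 in B, 30.1 in G and 74.7 in H, and at 20 C to 42.0 in A, 34.1 in E and 33.7 in F. The spread was carried by several members. At 15 C cutl-12 had 20.8 CPM in B and 2.14 in G, and cutl-24 had 12.8 in B and 0.78 in G. The gene cut-3 had 21.0 CPM in B, 0.0557 in G and 6.59 in H at 15 C, and at 20 C 0.99 in A, 0.048 in E and 0.133 in F. The groups overlapped, because letter G at 15 C lay below A and F at 20 C, and the log2 fold change was 4.56 (SE 2.39, adjusted p = 0.414, edgeR).

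Other cut genes had the same profile over letters. For cut-2 the sums were 16.1 CPM in B, 0.0186 in G and 1.03 in H at 15 C, and 1.19 in A, 0.096 in E and 0.0222 in F at 20 C. For cut-5 they were 1.96, 0.0372 and 1.41 CPM in B, G and H at 15 C, and 0.356, 0.192 and 0.2 in A, E and F at 20 C. For cut-6 they were 3.27, 0.0372 and 1.03 CPM in B, G and H at 15 C, and 0.475, 0.192 and 0.333 in A, E and F at 20 C. In all 3 genes letter G was the lowest of the 6 sums, and letter B was the highest. The gene cut-4 was flatter, with 1.31, 0.372 and 0.842 CPM in B, G and H at 15 C and 0.198, 0.48 and 0.399 in A, E and F at 20 C, and the groups overlapped.

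Among the cuticlin-like genes called on lithium, cutl-9 had 10.0 CPM in B, 1.06 in G and 4.59 in H at 15 C, against 2.38, 0.48 and 0.488 in A, E and F at 20 C. The levels of cutl-28 were 1.28, 0 and 1.04 CPM in B, G and H at 15 C, against 0.198, 0.336 and 0.0887 in A, E and F at 20 C. Both overlapped through letter G. Log2 fold changes of cutl-2, cutl-9, cutl-16 and cutl-28 at 15 C were 1.04, 2.23, 1.28 and 1.93, with SE of 0.71 to 1.53, and that of cutl-18 was -0.40 (SE 0.79); none was called.

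Of all 35, 4 were higher in every sum at 15 C than in any at 20 C (cutl-10, cutl-17, cutl-21 and cutl-23), where 7.86% of genes tested were, and 1 was lower (cutl-25), where 2.47% were. They were singled out after their values were seen. The levels of cutl-10 were 9.64, 1.78 and 4.23 CPM in B, G and H at 15 C and 0.832, 0.336 and 1.24 in A, E and F at 20 C (log2 fold change 2.68, SE 0.82, adjusted p = 0.39, edgeR). The gene cutl-17 had 121, 8 and 24 counts in B, G and H at 15 C and 1, 1 and 0 in A, E and F at 20 C. Pooled, it was 47.6-fold higher at 15 C (95% exact counting interval 12.9 to 396). The gene cutl-29 went its own way, with its highest sum, 13.8 CPM, in letter E at 20 C, against 1.90 in A and 1.24 in F.

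**Figure D4:**
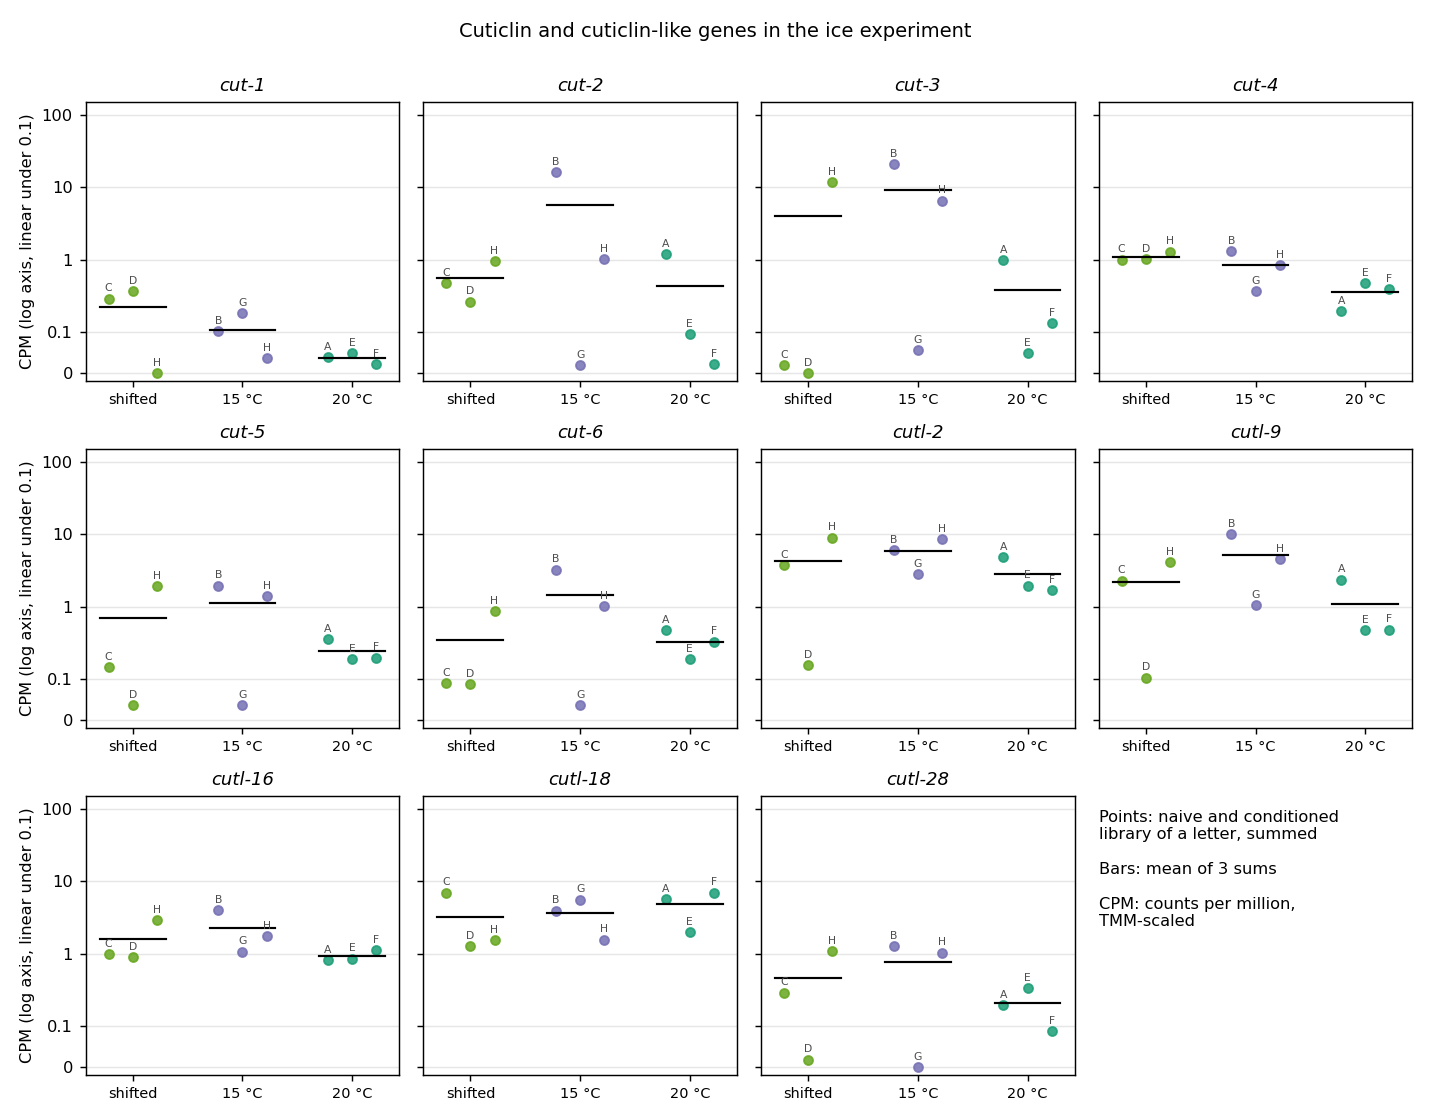
Scaled level (CPM, y axis, logarithmic above 0.1 and linear below) in the ice experiment of the same 11 genes, for shifted worms, 15 C and 20 C on the x axis. Points are sums of the naive and conditioned library of a letter and bars are means of 3 sums; cut-3 spans 0.0557 to 21.0 CPM at 15 C, and letters B and H lie above letter G at 15 C in all panels but those of cut-1 and cutl-18.

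The sign of the temperature difference in cut-2, cut-3 and cut-6 was negative on plain agar and positive on ice. These are different experiments, with other kits, with and without training and ice, so the values stand side by side and were not tested against each other. Without replicate 2 at 20 C the plain agar values of cut-2, cut-3 and cut-6 were -0.97, -2.49 and -0.82, and none was called. With 1 ice sum left out at a time, their ice values fell as low as 0.28, 3.10 and 0.67. On ice none of them was called in the main fit. No member was separated in opposite directions in the 2 experiments.

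Shifted worms were set against both steady temperatures. Against 15 C no gene was called in edgeR, and 27 of 31 values were negative with a median of -0.58, against -0.09 over all genes. An unadjusted p under 0.05 was held by 512 of 15412 genes tested and by 1 member, cutl-17. Against 20 C no gene was called in edgeR either, and 25 of 31 values were positive with a median of 1.03, against 0.04 over all genes. There 1855 of 15412 genes tested and 1 member, cut-4, had an unadjusted p under 0.05 (edgeR). DESeq2 called no member in either comparison.

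Levels of cut-4 in shifted worms were 1.01, 1.03 and 1.30 CPM in C, D and H, above the 0.198 to 0.48 CPM at 20 C. Its log2 fold change against 20 C was 1.62 (SE 0.69, adjusted p = 0.394, edgeR), and cut-4, cutl-10 and cutl-23 were higher in every shifted sum than at 20 C, where 11.2% of genes tested were, and none was lower in every sum, where 4.67% were. For cut-3 the shifted sums were 0.0183 CPM in C, 0 in D and 11.9 in H, which overlapped with both temperatures. Against 15 C only cutl-22, an untested gene with 9 counts over the shifted sums and 25 over those at 15 C, was lower in every sum, where 1.34% of genes tested were. The dauer alae gene cut-1 had 16, 21 and 0 counts in C, D and H after the shift, 4, 10 and 2 in B, G and H at 15 C, and 1, 1 and 1 in A, E and F at 20 C. Pooled over letters it was 7.51-fold higher in shifted worms than at 20 C (95% exact counting interval 2.38 to 38.1), with overlap because letter H held none.

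Marker lists also varied between these letters, not all in the order of the family's sums. The other ZP and precuticle list summed at 15 C to 359.3 CPM in B, 301.8 in G and 141.5 in H. At 15 C the epidermis and seam list summed to 1454 CPM in B, 470.6 in G and 273.0 in H, and the moulting list to 347.9, 164.4 and 143.3, while the germline and oocyte list summed to 11030 in B, 23752 in G and 11105 in H. In shifted worms the sperm list summed to 149.7 CPM in C, 358.4 in D and 22.0 in H, against 16.3 to 59.3 at 15 C and 7.03 to 22.3 at 20 C. The adult epidermis collagens, which mark the adult stage, summed to 579.8 to 1762 CPM in shifted worms, 220.3 to 1406 at 15 C and 264.5 to 948.0 at 20 C. The late embryo list ran between 57.2 and 142.6 CPM over all sums. Of the epidermis list 12 of 15 tested genes had positive values at 15 C against 20 C, of the moulting list 17 of 20, of the other ZP and precuticle list 10 of 12, of the cross-linking list 6 of 8, of the adult epidermis collagens 5 of 5, of the sperm list 9 of 9, of the late embryo list 6 of 10 and of the germline list 2 of 20. In shifted worms against 20 C, all 5 collagens were positive with a median of 3.33 and 3 had an unadjusted p under 0.05. All 9 sperm genes were positive with a median of 3.92 and 7 had an unadjusted p under 0.05 (edgeR). Over all genes tested, 1855 of 15412 had such a p. In that comparison the other lists had 6 of 12 (other ZP and precuticle), 6 of 8 (cross-linking), 11 of 20 (moulting), 11 of 15 (epidermis), 5 of 10 (late embryo) and 1 of 20 (germline) positive values, and in edgeR no gene of any list was called. Their part in the cuticlin values was not tested.

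Training on ice, the contrast of conditioned with naive worms, called no member. The main fit did not pair the libraries of a letter, so its SE and p-values include the spread between letters. In edgeR no gene was called when averaged over temperatures or within any of them, no member had an unadjusted p under 0.05, and the lowest adjusted p was 1.0; DESeq2 called none. The fold changes of the 29 tested members, averaged over temperatures, ran between -0.24 and 1.09 with a median of 0.15, against 0.02 over all genes. For cut-3 the mean difference was 0.07 (SE 1.49) and for cut-4 0.03 (SE 0.43). The family's sums were higher in the conditioned library in 7 of 9 letter pairs. Examples are H at 15 C, with 94.4 CPM conditioned and 63.9 naive, B at 15 C, with 179.1 conditioned and 150.9 naive, and E at 20 C, with 40.1 conditioned and 27.99 naive. The sums were nearly equal in G at 15 C (28.2 CPM conditioned, 28.1 naive) and F at 20 C (33.2 conditioned, 32.8 naive). They were lower in C after the shift, with 36.3 CPM conditioned and 38.8 naive, and in A at 20 C, with 41.7 conditioned and 49.1 naive.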

How the data were processed

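The deposited values were raw counts per gene, 1 table per experiment, made by the authors from polyA RNA of whole worms. Reads were processed against ce11 with, per the submitters' processing notes, HISAT2, HTSeq, cutadapt, FastQC and DESeq2 (no versions), and the strand setting is not given in the sources used here. Per the labels the lithium libraries used a directional NEBNext Ultra II kit. Those on ice used 1 of 2 SMART-Seq cDNA kits, not stated per library, with Nextera XT, which does not keep strand. Symbols and positions came from the Ensembl annotation of release 115.

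All genes entered edgeR 4.0.16, under R 4.3.3 with limma 3.58.1, with TMM scaling, filterByExpr and the robust quasi-likelihood test, two-sided, with 1 fit of 12 lithium libraries, 1 of 9 ice sums and 1 of 18 ice libraries. DESeq2 1.42.0 was an alternative. SE is the log2 fold change divided by the root of the F statistic. For each main edgeR fit 1 comparison was tried on simulated counts. Each library was drawn independently, so the likeness of paired ice libraries was not simulated. Naive and conditioned libraries of an ice letter correlated (r 0.471 to 0.897 in 9 of 9 pairs), so letters pair them; a fit with this replicate block changed no call. Pooled ratios are of summed counts per scaled depth. Members and lists were chosen with earlier results of these data known. Sample by sample values are given for cut-1 to cut-6 and every called cutl gene, and of the context lists at most 4 called genes per list and comparison are named, those with the largest absolute log2 fold change.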

Additional observations from a re-analysis of the deposited data

How the results depend on the processing

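On lithium at 20 C the 8 members called lower became 0 when only the 6 libraries compared were fitted, and 0 to 12 with 1 library left out at a time. DESeq2 also called 8, but gave no adjusted p for cut-3 and called cutl-25 in its place. With size factors 8 were called, without a filter 9, without ribosomal RNA rows 10. Over 12 alternative settings cut-3, cutl-16 and cutl-18 kept their call in 7. In 6 of the 12 the call was kept by cut-2, cut-6, cutl-2, cutl-9 and cutl-28. Member counts in this section are given without the share over all genes under each setting. Lithium replicates share only a number (r -0.316 to 0.346, 13 of 18 pairs above 0.1), and a replicate block gave 9 members here and 1 on plain agar. At 15 C DESeq2 called 1 member lower on lithium. For 15 C against 20 C on plain agar the 1 called member became 4 in DESeq2, 0 without a filter, 0 with only the libraries compared, and 0 to 9 with each library left out. On ice, without a filter, 5 members were called higher at 15 C than at 20 C (cut-2, cut-3, cutl-10, cutl-17 and cutl-24), 1 lower after the shift than at 15 C (cut-2) and 1 higher after the shift than at 20 C (cut-3); the cause was not tested. With each library left out, 3 uncalled members changed sign on lithium at 20 C: cutl-10 ran from -0.82 to 0.20, cutl-14 from -0.30 to 0.029 and cutl-24 from -0.34 to 1.36. On plain agar 6 did: cutl-3 (-0.62 to 0.11), cutl-10 (-0.28 to 0.73), cutl-14 (-0.25 to 0.15), cutl-20 (-0.79 to 0.074), cutl-25 (-1.19 to 0.30) and cutl-26 (-0.66 to 0.42). No other setting tried for a member count moved it by over 1.5 times. The count of the context lists without control replicate 2 was added after seeing the data. Depth limits the lowest members: 15 of 35 could not be tested on lithium.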
